A study of Homo sapiens with 18 samples.

Results

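RNA-Seq was made from MCF10A-ErSrc cells, a human breast epithelial line that carries an oncogenic Src kinase fused to the hormone-binding part of the estrogen receptor, so that tamoxifen switches the kinase on. The comparison described here is that of tamoxifen-transformed cells incubated for 4 h with triptolide (TAM + TPL, 2 libraries, labelled TPL-125nM) against tamoxifen-transformed cells incubated for 4 h with the solvent DMSO (TAM, 2 libraries). These 4 libraries were chosen by their labels out of 18 samples, and the change was described across the 15754 genes that passed a filter on low counts, of 21697 genes listed. Untransformed cells without tamoxifen (NT) and with the same TPL dose and time (NT + TPL), with 2 libraries each, entered the same fit and are given only where they show how the change in TAM cells differs. All 4 groups carry the Src construct, all are cultures of a single line, and the control of TPL is DMSO in each cell state.

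TPL is a plant diterpenoid that binds XPB (gene ERCC3), the translocase of the general transcription factor TFIIH. TFIIH opens the DNA at RNA polymerase II (RNAPII) promoters and phosphorylates the polymerase, and a cell in which it fails can no longer replace its mRNAs as they decay. The level of an mRNA a few hours later therefore depends on both its synthesis and its stability, and short-lived mRNAs such as those of chemokines, immediate early factors and feedback inhibitors are known as early responders to transcription inhibitors. As a background to all values below, sequencing of poly-A RNA gives shares of a library, so that a rise is a rise relative to the other transcripts, and fewer cells and less RNA per cell cannot be told apart.

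The total of expected counts, the reads that the authors' software assigned to genes, was 8349448 and 8321419 in the TAM libraries and 7461309 and 8141162 in the TAM + TPL libraries. The TAM libraries held reads of 17565 and 17686 genes and the treated libraries reads of 19154 and 19183 genes. Levels are given as FPKM (fragments per kilobase of transcript, scaled to the reads mapped in the library), in replicate order, and changes as the log2 fold change of TAM + TPL over TAM ± its standard error, with the adjusted p (Benjamini-Hochberg) of edgeR's quasi-likelihood test. Basal epithelial markers were present in the TAM libraries, with 1308 and 1308 FPKM of keratin KRT5 and 1554 and 1408 FPKM of keratin KRT17. The 8 fibroblast markers summed to 4.33 and 8.54 FPKM in TAM and 9.56 and 6.62 FPKM in TAM + TPL, and the 5 endothelial markers listed, of 6, to between 1.07 and 2.09 FPKM. The immune markers summed to 309 and 288 FPKM in TAM and 490 and 426 FPKM in TAM + TPL, most of it CD68, a lysosomal protein, while TYROBP was listed at 0 in all 4 libraries. Estrogen receptor ESR1 stood at 95.3 and 68.5 FPKM in TAM, and its reads cannot be told apart from those of the construct where these share sequence.

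The TAM library of replicate 2 and the TAM + TPL library of replicate 1 shared transcripts that were all but missing from the other 2 libraries of the comparison. With at least 10 counts in both libraries of a pair and at most 2 in both of the others, 24 genes fell to this pair, against 2 to 4 genes for the other 3 pairs made of 1 TAM and 1 TAM + TPL library. Of the 24 genes, 12 were also at 2 counts or fewer in all 4 NT and NT + TPL libraries. IGFBP5, an IGF-binding protein, had 0 and 314 counts in TAM and 328 and 2 counts in TAM + TPL. COL1A2, a fibrillar collagen, had 0 and 48 counts in TAM and 47 and 0 in TAM + TPL, and the growth factor IGF2 had 0 and 48 against 48 and 1. These transcripts took 0.0109% and 0.0128% of the counts of the 2 libraries, each arm held 1 of the libraries, and 0 of the 24 genes were called changed. The counts of calls, the counts of the gene lists and the shares of gene classes and peaks are given below with and without them. The part of carry-over from another library or of mixed samples in the shared transcripts was not tested.

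TPL changed a large part of the transcriptome of TAM cells, with more genes lowered than raised under the main scaling, an order that depended on it. At the study's thresholds, which ask for an adjusted p no higher than 0.001 together with a log2 change no smaller than 1.2 in either direction, 1152 genes were called lowered (7.31% of the genes tested) and 622 were called raised (3.95%), together 11.3%. These counts are of entries summed by gene, and entries tested as deposited gave 345 lowered and 143 raised. With an adjusted p no higher than 0.05 as the single condition, which defines the words fell and rose below, 3700 genes fell (23.5%) and 3215 rose (20.4%), together 43.9%. Counts of members in the gene lists and classes below are to be read beside these shares. The lowered genes held 12.5 and 11.9% of all counts in TAM and 3.31 and 3.39% in TAM + TPL, and the raised genes went from 1.15 and 1.09% to 4.58 and 4.43%. Falls were more numerous, and the median fitted log2 fold change was -1.85 among the lowered and 2.59 among the raised calls. A change of at least 8-fold was fitted for 109 lowered and 249 raised genes, and of at least 16-fold for 35 and 157. In 38 raised genes both TAM libraries stood at 0, and in 106 at 3 counts or fewer, so the fitted size of these rises is not a measured fold. They enter the median and the counts of large rises, and the raised genes were scarcer in TAM cells than the lowered. The sizes of rises and falls are therefore not compared.

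All 622 raised genes had both treated libraries above both controls and all 1152 lowered genes both below, against 40.2% and 38% of the genes tested that lay wholly above or below. The split of the calls moved with the scaling. Rises made up 35.1% of the calls with TMM scaling, 53.3% with upper quartile scaling (900 raised and 787 lowered) and 29.6% with GAPDH as the reference (565 and 1347), while the median over all genes tested was 0.05, 0.29 and -0.07 on the log2 scale. At an adjusted p of at most 0.05 in edgeR's test, 4660 genes rose and 2687 fell with upper quartile scaling. With GAPDH as the reference 2346 rose and 3800 fell. No call changed sign under these scalings. Without the TAM library of replicate 2 the calls numbered 149 raised and 436 lowered, and without the TAM + TPL library of replicate 1 they numbered 167 and 241. Without TAM replicate 1 they were 136 and 392, and without TAM + TPL replicate 2 they were 225 and 256. With both libraries that shared transcripts left out, the edgeR test had 1 library an arm, whose spread is assumed to be that of the NT groups, and called 0 genes at the strict thresholds, with 1717 genes whose adjusted p was no higher than 0.05 and 4678 at an unadjusted p under 0.05. In that fit 1694 of the 1774 calls still lay at or past the same log2 fold change with the same sign, and 1456 of them had an adjusted p of at most 0.05.

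The share of called genes depended on how abundant a gene was in TAM cells. From 20 to 100 FPKM, 16.4% of 2602 genes were called lowered and 1.38% raised, and from 5 to 20 FPKM 11.1% of 4920 genes were lowered and 1.87% raised. From 0.1 to 1 FPKM 7.47% of 2585 genes were called raised and 0.155% lowered. Below 0.1 FPKM, 18.6% of 549 genes were raised and 0 were lowered. Genes below 0.1 FPKM passed the filter on low counts largely through libraries in which they are higher, so nothing is read from that share. Genes from 0.1 to 1 FPKM also have few counts, where a fall is harder to call than a rise, and some may have passed likewise. Their order of rises and falls is therefore not read as a reversal, with or without the libraries that shared transcripts. Above 100 FPKM, 11.8% of 652 genes were lowered and 0.613% raised. Without both libraries that shared transcripts, where no gene passed the strict thresholds, 16.6% of the genes from 20 to 100 FPKM fell and 1.19% rose, and from 0.1 to 1 FPKM 0.287% fell and 6.68% rose.

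**Figure D1:**
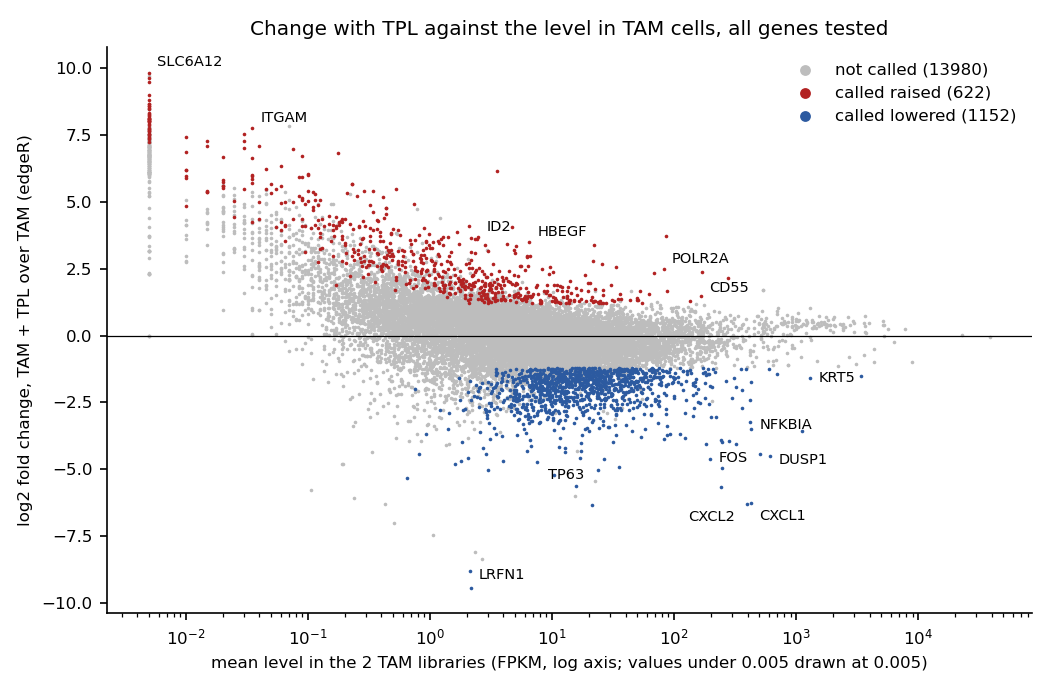
Log2 fold change of TAM + TPL over TAM (vertical axis) against the mean FPKM of the 2 TAM libraries (horizontal log axis) for the 15754 genes tested, with the 622 raised genes in red, the 1152 lowered genes in blue and the other 13980 in grey. Lowered genes lie mostly above 1 FPKM, with CXCL1, CXCL2, FOS and DUSP1 far below the line of no change, while most genes below 0.1 FPKM lie above it. For genes at or near 0 counts in TAM the fitted height is not a measured fold.

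The deepest falls among abundant genes were those of the chemokines CXCL1, CXCL2 and CXCL3. CXCL1, CXCL2, CXCL3 and CXCL8 are secreted attractants of neutrophils that NF-kB, the dimeric factor of inflammatory signalling, is known to switch on, and inflammatory cytokines are a known trait of Src-transformed MCF10A cells. CXCL1 (chr4:74735110-74737025 in hg19, plus strand) stood at 418 and 432 FPKM in TAM and at 8.06 and 3.48 FPKM in TAM + TPL. CXCL2 stood at 388 and 398 FPKM against 5.40 and 4.94 FPKM, and CXCL3 at 249 and 233 FPKM against 5.92 and 3.88 FPKM. The groups were far apart in each of the 3 genes, and the treated libraries of CXCL1 differed from each other by more than those of CXCL2. The log2 fold changes were -6.27 ± 0.40 for CXCL1 (adjusted p = 1.80e-06), -6.30 ± 0.30 for CXCL2 (adjusted p = 4.77e-07) and -5.66 ± 0.23 for CXCL3 (adjusted p = 3.57e-07). The 3 genes lie close together and their transcripts are much alike, so reads can be shared among them. CXCL8, the chemokine interleukin 8, went from 82.2 and 83.3 FPKM to 6.23 and 5.50 FPKM, a log2 change of -3.87 ± 0.21.

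The granulocyte growth factor CSF3 went from 255 and 240 FPKM to 9.93 and 6.72 FPKM, a log2 change of -4.94 ± 0.25 (adjusted p = 5.33e-07). The interleukins IL1A and IL1B, both initiators of inflammation, fell by 2.63 ± 0.21 and 3.28 ± 0.27 on the log2 scale. Among 15 of 23 chemokine and cytokine genes tested, 11 fell, of which 7 were called lowered, 1 rose and 3 did not pass the test, with a median log2 fold change of -2.72 against 0.05 over all genes tested. The 8 genes that could not be tested were low or not listed, CXCL10 and CCL2 among them. CCL5, a chemoattractant of T cells and the member that rose, went from 39.6 and 37.1 FPKM to 91.7 and 67.7 FPKM. CCL20, the ligand of the receptor CCR6, stood at 134 and 173 FPKM in TAM and 88.4 and 95.7 FPKM in TAM + TPL, with groups that did not overlap and an adjusted p of 0.112. IL6, the cytokine that drives STAT3 in this line, was low, with 29 and 22 counts in TAM and 4 and 1 counts in TAM + TPL (adjusted p = 0.0101), and STAT3 itself stood at 53.4 and 50.8 FPKM against 68.5 and 74.5 FPKM (adjusted p = 0.0572).

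NF-kB restrains itself through genes that it induces, and several of these were called lowered. NFKBIA, which encodes the inhibitor that holds NF-kB in the cytoplasm, stood at 429 and 423 FPKM in TAM and at 34.8 and 42.9 FPKM in TAM + TPL, a log2 fold change of -3.50 ± 0.19 (adjusted p = 8.50e-07). TNFAIP3, the ubiquitin-editing brake A20, went from 39.8 and 33.0 FPKM to 6.20 and 5.33 FPKM, and BCL3, a nuclear partner of NF-kB, from 191 and 176 FPKM to 13.8 and 9.07 FPKM. Both groups were again apart. Of 17 NF-kB subunits and inhibitors tested, 11 fell and 0 rose, 8 of them were called lowered, and the median log2 fold change was -1.08. The inhibitors NFKBIB and NFKBIE, at -0.24 and 0.65, and the deubiquitinase CYLD, at 0.05, did not pass the test. Of the subunits, RELA fell by 1.25 ± 0.22 and NFKB1 by 1.08 ± 0.17 on the log2 scale, while REL, RELB and NFKB2 did not pass the test.

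Promoters of some lowered chemokine and NF-kB feedback genes are shown because NF-kB is known to act through sites next to the start of transcription. These genes were picked for their changes and for the match described next. Each line gives the 100 bases before the RefSeq start site, 5′ to 3′ on the strand of the gene, and capitals mark a 10-letter NF-kB motif (GGG, any base, ATTTCC) on either strand and, on the strand of the gene and within 50 bases of the start, TATAA and ATAAA, which overlap in TATAAA.
CXCL1: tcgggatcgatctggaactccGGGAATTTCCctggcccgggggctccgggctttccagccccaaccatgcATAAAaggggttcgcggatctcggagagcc
CXCL2: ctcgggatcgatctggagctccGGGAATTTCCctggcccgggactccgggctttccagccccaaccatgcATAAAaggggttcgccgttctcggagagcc
CXCL3: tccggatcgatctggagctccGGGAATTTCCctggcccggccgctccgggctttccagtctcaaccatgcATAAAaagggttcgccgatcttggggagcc
NFKBIA: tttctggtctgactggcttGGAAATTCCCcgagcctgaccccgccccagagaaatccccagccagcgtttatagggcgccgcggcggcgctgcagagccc
TNFAIP3: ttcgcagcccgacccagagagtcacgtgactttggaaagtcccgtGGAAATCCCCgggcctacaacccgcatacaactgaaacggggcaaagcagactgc

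The windows lie in GRCh38.p14 at chr4:73869293-73869392 (plus strand) for CXCL1, chr4:74099196-74099295 (minus strand) for CXCL2 and chr4:74038690-74038789 (minus strand) for CXCL3. That of NFKBIA lies at chr14:35404750-35404849 (minus strand) and that of TNFAIP3 at chr6:137867159-137867258 (plus strand). The first base of the match lay 79, 78, 79, 81 and 55 bases before the start, in the order shown. CXCL1 and CXCL3 were identical at 90 of the 100 positions, CXCL1 and CXCL2 at 73, and CXCL2 and CXCL3 at 67, without gaps. Within 250 bases before the start, 0.387% of the 35116 promoters of the RefSeq table held this NF-kB motif on either strand. Counted by gene, over any of its promoters, the motif was held by 11 of the 936 lowered genes with a promoter in the table (1.18%), 4 of the 457 such raised genes (0.875%) and 63 of the 12174 such genes tested (0.517%). The table had a promoter for 81.2% of the lowered genes, 73.5% of the raised genes and 77.3% of the genes tested. It thus left out a larger part of the last 2 sets, no test was made and the shares are given as description. A match of letters is a description and not a site. CXCL8, another lowered chemokine whose bases are shown further below, held no match to this motif in them.

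Immediate early genes, the transcription factor genes that growth signals switch on within minutes, fell in large part, with a few rises among them. FOS (chr14:75745529-75748933 in hg19, plus strand), a subunit of the factor AP-1, stood at 555 and 454 FPKM in TAM and at 21.8 and 26.8 FPKM in TAM + TPL, a log2 fold change of -4.42 ± 0.21 (adjusted p = 4.77e-07). JUN, its partner, went from 226 and 173 FPKM to 25.2 and 25 FPKM, and KLF6, a zinc finger factor, from 211 and 184 FPKM to 7.60 and 9.04 FPKM. In each the lower control was several times the higher treated library. KLF5, which keeps epithelial cells dividing, fell by 2.57 ± 0.26 on the log2 scale and FOSB by 2.34 ± 0.24. Of 26 immediate early genes, 16 fell, 11 of them called lowered, and 6 rose, 3 of them called raised, with a median log2 fold change of -1.33. EGR3, an early growth response factor, rose from 0.15 and 0.09 FPKM to 3.92 and 3.32 FPKM, a log2 change of 4.88 ± 0.51, and the orphan receptor NR4A3 from 3.11 and 7 counts to 97 and 95 counts, a log2 fold change of 4.28 ± 0.50. Members of a family thus moved in opposite directions, since NR4A2 fell by 2.09 ± 0.22 on the log2 scale. EGR1 stood at 212 and 172 FPKM in TAM and at 120 and 118 FPKM in TAM + TPL, below both controls but with an adjusted p of 0.0715.

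Phosphatases of MAP kinases, among which ERK is the last kinase of the growth factor cascade, moved both ways, and 4 of them were called lowered. Not all of them act mainly on ERK. DUSP1, a nuclear phosphatase of MAP kinases, stood at 621 and 598 FPKM in TAM and at 21.4 and 34.7 FPKM in TAM + TPL, a log2 fold change of -4.49 ± 0.24 (adjusted p = 9.35e-07). DUSP7 went from 94.5 and 90.5 FPKM to 9.09 and 5.80 FPKM and DUSP6, specific for ERK, from 46.4 and 46.4 FPKM to 7.37 and 7.48 FPKM. DUSP4, the other phosphatase called lowered, fell by 2.06 ± 0.16. The called member that rose was DUSP5, a nuclear ERK phosphatase, which rose from 3.93 and 4.45 FPKM to 18.9 and 19.7 FPKM, a log2 change of 2.15 ± 0.21 (adjusted p = 1.94e-05). DUSP8, DUSP10 and DUSP14 rose by 1.25, 1.55 and 0.67. Of 16 ERK feedback genes, 8 fell, 4 rose and 4 did not pass the test, and SPRY1, which blocks receptor signalling, was among the 5 called lowered.

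Of 25 genes of AU-rich element binding and deadenylation, which govern the decay of mRNAs, 14 fell, 4 of them called lowered, 5 rose, 2 of them called raised, and 6 did not pass the test, with a median of -0.66. Thus 56% fell and 20% rose, beside 23.5% and 20.4% of all genes tested. ZFP36, whose protein binds AU-rich elements in short-lived mRNAs and recruits deadenylases, was among the most abundant lowered genes, with 1205 and 1011 FPKM in TAM and 100.8 and 92.1 FPKM in TAM + TPL, a log2 fold change of -3.57 ± 0.25 (adjusted p = 2.77e-06). Its relatives ZFP36L1, from 318 and 321 FPKM to 20.2 and 15.7 FPKM, and ZFP36L2, from 69.2 and 60.8 FPKM to 8.18 and 9.50 FPKM, moved with it. TOB1, an antiproliferative adaptor that joins deadenylases to their targets, rose from 20.9 and 23.7 FPKM to 76.3 and 80.7 FPKM, a log2 change of 1.76 ± 0.23.

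**Figure D2:**
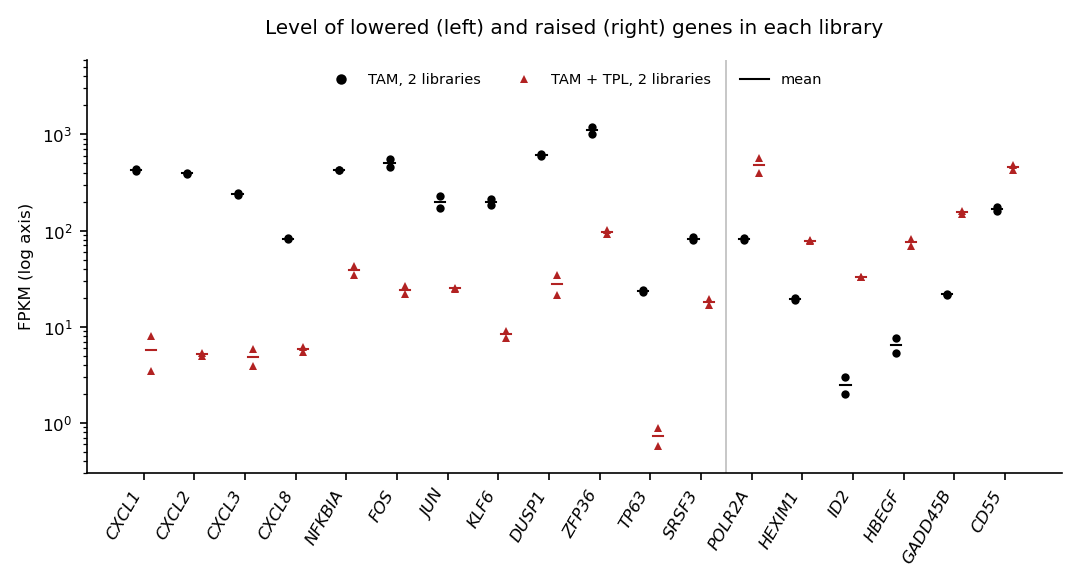
FPKM (log axis) of 12 lowered genes (left of the line) and 6 raised genes (right) in the 2 TAM libraries (black circles) and the 2 TAM + TPL libraries (red triangles), with the mean of each pair as a short line. For each gene drawn both treated libraries lie on the same side of both controls, and the distance is longest for CXCL1 and CXCL2.

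TP63, OVOL2 and ESRP2, factors of basal or epithelial identity, were called lowered, while the markers of basal and of luminal cells changed in part. TP63 (chr3:189349178-189615065 in hg19, plus strand), the master factor of basal epithelium, stood at 24.2 and 23.0 FPKM in TAM and at 0.89 and 0.58 FPKM in TAM + TPL, a log2 fold change of -5.04 ± 0.36 (adjusted p = 3.17e-06). OVOL2, a repressor of the mesenchymal program, went from 105 and 90 counts to 1 and 6 counts, a log2 fold change of -4.71 ± 0.57. ESRP2, a splicing factor specific to epithelium, went from 33.8 and 32.8 FPKM to 2.40 and 2.77 FPKM, a log2 change of -3.73 ± 0.25. Factors of the mesenchymal side moved both ways. TWIST1 and TWIST2 were called lowered, at -2.33 ± 0.41 and -1.95 ± 0.29, whereas SNAI1, a repressor of E-cadherin, rose from 3.27 and 4.67 FPKM to 19.7 and 14.5 FPKM. Of the 8 basal epithelial markers 4 fell, TP63, KRT5, KRT17 and LAMB3, and 4 did not pass the test. Of 6 luminal markers tested 3 fell, ESR1 by 1.14, GATA3 by 1.31 and FOXA1 by 1.55 on the log2 scale, 1 rose and 2 did not pass the test. The reads of ESR1 may include those of the construct, so its fall cannot be read as that of a luminal marker. The cadherins CDH1, CDH2 and CDH3 and the filament gene VIM did not pass the test, with log2 fold changes between -0.52 and 0.34.

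KRT5, the main keratin of basal cells, fell from 1308 and 1308 FPKM to 475 and 434 FPKM, a log2 change of -1.57 ± 0.17, and KRT7 from 328 and 311 FPKM to 78.1 and 94.96 FPKM, a log2 change of -1.93 ± 0.19. Of 14 keratins tested 7 fell, and KRT8, a keratin of simple epithelium, rose by 0.47 ± 0.16 on the log2 scale (adjusted p = 0.0328). Falls outweighed rises among developmental factors as well. SOX7 went from 17.97 and 19 FPKM to 1.63 and 1.73 FPKM and SOX4 from 25.8 and 25.2 FPKM to 6.42 and 6.33 FPKM. Over all genes tested 23.5% fell and 20.4% rose, against 50% and 7.14% of the keratins. Of 17 SOX and forkhead factors 10 fell (58.8%), 4 of them called lowered, and 2 rose (11.8%), SOX9 and FOXO4. FOXF2, a forkhead factor of stromal development outside that list, was among the 12 largest falls, from 16.4 and 15.1 FPKM to 0.24 and 0.39 FPKM, a log2 change of -5.64 ± 0.32. Others of the 12 were GAS1, a membrane protein that arrests growth, at -5.20 ± 0.35, PPARGC1B, a coactivator of mitochondrial genes, at -5.02 ± 0.49, and RIN2, an exchange factor for the endosomal GTPase RAB5, at -4.92 ± 0.22. LRFN1, a synaptic adhesion gene, had 66 and 49 counts in TAM and 0 and 0 in TAM + TPL, at least 18.5-fold lower against 3 counts in each treated library. DNAAF4-CCPG1 went from 81.1 and 96.0 counts to 0 and 0, but is a readthrough transcript that shares its exons with neighbours.

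Of 16 Src and focal adhesion genes 7 fell, 6 of them called lowered, 2 rose and 7 did not pass the test. The shares were 43.8% and 12.5%, beside 23.5% that fell and 20.4% that rose over all genes tested. CSK, the kinase that phosphorylates Src into its closed form, stood at 41.6 and 42.3 FPKM in TAM and at 9.59 and 10.2 FPKM in TAM + TPL, a log2 fold change of -2.11 ± 0.17 (adjusted p = 6.70e-06). BCAR1, an adaptor at focal adhesions that Src phosphorylates, went from 70.9 and 57.2 FPKM to 16.7 and 16.7 FPKM, and CAV1, the coat protein of caveolae, from 28.3 and 33.3 FPKM to 10.04 and 7.40 FPKM. The cellular SRC gene, whose reads may include those of the construct, went from 14.8 and 10.7 FPKM to 4.37 and 4.72 FPKM. The adaptor SHC1 and the kinase FYN rose, and the Src-related kinases YES1 and LYN did not pass the test.

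Genes of the YAP pathway, which senses cell shape, held large falls and small rises. F3, the tissue factor that starts coagulation, went from 265 and 296 FPKM to 20.9 and 16.5 FPKM, a log2 change of -3.95 ± 0.24, and FJX1, a Golgi kinase, from 12.3 and 13.3 FPKM to 0.84 and 0.59 FPKM. The matrix proteins CCN1 and CCN2, the best known targets of YAP, rose by 1.11 and 1.40 on the log2 scale. Of 20 members 7 fell and 4 rose, beside 23.5% that fell and 20.4% that rose over all genes tested. In the hypoxia and glycolysis list 13 of 32 genes fell and 1 rose. HIF1A, the oxygen-regulated factor, went from 175 and 180 FPKM to 36.3 and 37.1 FPKM, a log2 change of -2.32 ± 0.27 (adjusted p = 6.17e-05), and its partner ARNT fell by 1.67 ± 0.26. ANGPTL4, a secreted inhibitor of lipoprotein lipase, went from 252 and 236 FPKM to 19.5 and 19.3 FPKM. The related factor EPAS1 stood at 95.6 and 77.3 FPKM against 127 and 149 FPKM, with groups that did not overlap and an adjusted p of 0.0558.

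Of the cell division cycle, about as many genes did not pass the test as fell. Of the mitosis genes 45% fell and of the replication genes 43.5%, beside 23.5% of all genes tested. The shares that rose were 5% and 6.52%, beside 20.4%. CDC20, an activator of the anaphase-promoting complex, went from 39.3 and 42.5 FPKM to 11.7 and 14.5 FPKM, a log2 change of -1.69 ± 0.20, and the mitotic kinase PLK1 from 23.6 and 20.4 FPKM to 8.82 and 7.03 FPKM. Of 40 mitosis genes 18 fell, 8 of them called lowered, 20 did not pass the test, and NUSAP1 and PTTG1 rose. Among 46 genes of the G1/S transition and DNA replication 20 fell and 23 did not pass the test, and 7 were called lowered, among them the helicase subunit MCM3 at -1.83 ± 0.19, the kinase CDK6 at -1.85 ± 0.25 and its cyclin CCND1 at -1.34 ± 0.19. The 3 that rose were the cyclin-dependent kinase inhibitors CDKN1A, CDKN1C and CDKN2C. CDKN1A, a target of p53, went from 77.6 and 78.8 FPKM to 181 and 143 FPKM, a log2 change of 1.02 ± 0.18. MYC, a driver of growth with a short-lived mRNA, stood at 154 and 148 FPKM in TAM and at 34.0 and 36.3 FPKM in TAM + TPL, a log2 fold change of -2.15 ± 0.23. Its dimer partner MAX and the related MLX were called lowered as well, at -1.52 ± 0.18 and -1.73 ± 0.18.

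Of 20 BCL2 family and other apoptosis genes 7 fell, 3 rose and 10 did not pass the test, beside 23.5% that fell and 20.4% that rose over all genes tested. BCL2L1, which encodes the survival protein BCL-XL, went from 73.1 and 69.0 FPKM to 14.6 and 12.6 FPKM, a log2 change of -2.42 ± 0.22, while MCL1, another survival gene, fell by 0.81 ± 0.19 and remained the more abundant at 128 and 117 FPKM. The pro-death genes BOK and BAK1 were called lowered, at -2.36 ± 0.25 and -1.28 ± 0.20, and PMAIP1, which encodes the pro-death protein NOXA, was called raised, from 20.3 and 22.2 FPKM to 57.6 and 61.6 FPKM. Among 24 genes of the p53 pathway 9 rose and 5 fell, and MDM2, its ubiquitin ligase and a usual target, stood at 18.7 and 18.9 FPKM against 14.4 and 16.3 FPKM (adjusted p = 0.161). The death receptor FAS, called lowered, went from 14.9 and 15.8 FPKM to 4.47 and 5.03 FPKM. TNFRSF10D, a decoy receptor for the death ligand TRAIL that is in no list and was chosen after its values were seen, was called raised, from 31.9 and 35.0 FPKM to 210 and 204 FPKM, a log2 change of 2.58 ± 0.16 (adjusted p = 1.80e-06).

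Of 34 genes of the SR proteins, which guide splicing, hnRNPs and their kinases, 20 fell, 8 of them called lowered, 13 did not pass the test and 1 rose. SRSF3 went from 79.0 and 85.2 FPKM to 17.02 and 19.3 FPKM, a log2 change of -2.13 ± 0.16 (adjusted p = 4.13e-06), SRSF7 fell by 2.05 ± 0.17 and SRSF6 by 1.66 ± 0.16. The kinase CLK1, which phosphorylates SR proteins, rose by 0.90 ± 0.18. SRSF1 and HNRNPA2B1 did not pass the test, at -0.11 and -0.13. Among stress factors of the endoplasmic reticulum and of ATF4, DDIT4, an inhibitor of mTOR, fell by 2.97 ± 0.24 on the log2 scale and CEBPB, a factor of inflammation and stress, by 2.76 ± 0.25. In the same list ERN1, the sensor of unfolded proteins, rose from 38 and 25 counts to 321 and 396 counts, and the cystine transporter SLC7A11 from 1.30 and 1.34 FPKM to 5.01 and 5.17 FPKM, so that 6 of 24 fell and 8 rose. Among 25 heat shock genes 8 fell and 6 rose, with the cochaperone DNAJB1 called lowered at -1.55 ± 0.16 and the chaperone HSPA2 called raised at 3.51 ± 0.24. Over all genes tested 23.5% fell and 20.4% rose, so the counts of the heat shock and stress factor lists are given as description.

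The counts in the lists of differentiation, growth and metabolism are read beside the 23.5% of all genes tested that fell and the 20.4% that rose, and those of the clock, cholesterol and interferon lists lay near them. Of 13 ID and SMAD pathway genes tested 7 fell and 3 rose, and its inhibitors of differentiation ID1 and ID2 went opposite ways. ID2 rose from 3.01 and 1.98 FPKM to 33.2 and 33.1 FPKM, a log2 change of 3.68 ± 0.24, and ID1 fell from 97.8 and 103 FPKM to 21.6 and 20.3 FPKM, a log2 change of -2.33 ± 0.23. EGF family ligands split likewise, with HBEGF, a heparin-binding ligand of EGFR, at 7.60 and 5.32 FPKM in TAM and 81.2 and 69.6 FPKM in TAM + TPL, a log2 fold change of 3.50 ± 0.25, and EREG at -2.10 ± 0.21. In the clock list, where 5 of 17 fell and 3 rose, the repressor BHLHE40 fell by 2.99 ± 0.34 and the cryptochrome CRY2 rose by 2.14 ± 0.21. The enzymes of cholesterol synthesis SQLE and IDI1 moved apart, at -1.69 ± 0.20 and 1.84 ± 0.18, and 6 of 23 in that list fell and 4 rose. The antioxidant factor NFE2L2 and its inhibitor KEAP1 were both called lowered, at -1.49 ± 0.18 and -1.46 ± 0.20, among 4 of 21 that fell and 2 that rose. Of 30 interferon-stimulated genes and IRFs 9 fell and 4 rose, of 19 laminin, integrin and hemidesmosome genes 3 fell and 3 rose, of 21 matrix proteases and inhibitors 6 fell and 3 rose, and of 17 nuclear receptor coactivators and corepressors 6 fell and 0 rose.

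The counts of members that rose or fell were fewer without the libraries that shared transcripts, in a fit with 1 library an arm. With the TAM library of replicate 2 and the TAM + TPL library of replicate 1 both left out, 9 chemokine and cytokine genes fell in place of 11, 7 NF-kB genes in place of 11, and 11 immediate early genes in place of 16. In the same fit 6 Src and focal adhesion genes fell in place of 7, 5 YAP genes in place of 7 and 5 SOX and forkhead genes in place of 10. The smaller changes were lost more often, with 4 mitosis genes that fell in place of 18, 7 replication genes in place of 20, 7 splicing genes in place of 20, 4 AU-rich element genes in place of 14 and 5 hypoxia genes in place of 13. Of the ERK feedback genes 5 fell and 2 rose, of the EMT regulators and cadherins 3 and 1, of the keratins 2 and 0, of the basal markers 2 and 0 and of the luminal markers 0 and 0. Of the apoptosis genes 2 fell and 1 rose, of the p53 pathway 2 and 2, of the TFIIH subunits 1 and 0, and of the pausing and elongation factors 1 and 2. Over all 15717 genes of that fit 7.27% fell and 3.66% rose. Of the 132 genes named by rule and called, 122 kept an adjusted p of at most 0.05 there, and LAMB1, MT1E, BAK1, H2BC5, BUB3, SKI, HMGCS1, LINC00628 and DNAAF4-CCPG1 were among those that did not.

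**Figure D3:**
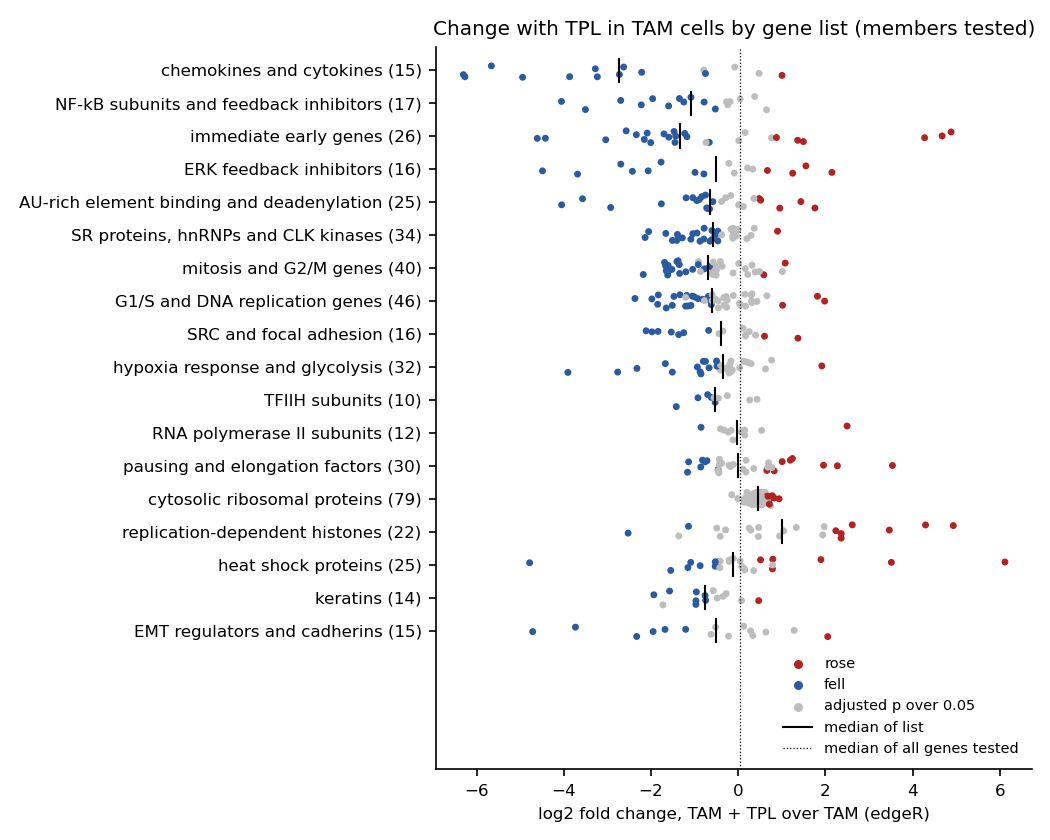
Log2 fold change of TAM + TPL over TAM for each tested member of 18 gene lists (number tested in parentheses), with members that fell in blue, that rose in red and that did not pass an adjusted p of 0.05 in grey. Short black lines mark the median of a list, lowest for the chemokines at -2.72, and the dotted line marks the median of all genes tested at 0.05.

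The machinery that TPL acts on changed in several places. TFIIH has 10 subunit genes in the list, of which 5 fell and 0 rose, with a median log2 fold change of -0.54. Over all genes tested 23.5% fell and 20.4% rose. ERCC3 (XPB) stood at 15.3 and 14.2 FPKM in TAM and 10.5 and 10.6 FPKM in TAM + TPL, a log2 fold change of -0.53 ± 0.18 (adjusted p = 0.0300). The kinase CDK7 and its cyclin CCNH fell by 0.70 and 0.92, and GTF2H4, which encodes the subunit p52 that anchors XPB, was the member called lowered, from 13.3 and 10.8 FPKM to 4.47 and 4.81 FPKM, a log2 change of -1.42 ± 0.23. Among the 12 subunits of RNAPII the largest, POLR2A (chr17:7387685-7417933 in hg19, plus strand), was called raised and stood apart from the other 11. It went from 84.4 and 80.2 FPKM to 563 and 398 FPKM, a log2 change of 2.50 ± 0.28 (adjusted p = 5.00e-05), while the other 11 lay between -0.85 and 0.54.

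HEXIM1, which holds the elongation kinase P-TEFb inactive in the 7SK particle, was called raised. It stood at 20.04 and 19.2 FPKM in TAM and at 79.0 and 78.4 FPKM in TAM + TPL, a log2 fold change of 1.96 ± 0.16 (adjusted p = 5.90e-06). P-TEFb itself moved in its parts, with the kinase CDK9 at -0.82 ± 0.23 and its cyclin CCNT1 at 1.24 ± 0.23. EAF2, a partner of the elongation factor ELL, rose from 5 and 2 counts to 32 and 50 counts. Of 30 pausing and elongation factors 8 rose and 7 fell, 26.7% and 23.3%, which lay near the 20.4% and 23.5% of all genes tested. SUPT5H and NELFE were among the factors that did not pass the test. GTF2B, the initiation factor that places RNAPII at the start site, is in no list, was chosen after its values were seen and was called raised, from 13.6 and 14.3 FPKM to 63.0 and 56.6 FPKM, a log2 change of 2.05 ± 0.21.

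The promoters of the raised genes HEXIM1, GADD45B and POLR2A are set beside those of the lowered genes CXCL8, FOS, DUSP1 and SRSF3, because TFIIH acts where the DNA melts, just past the TATA position. Lines and capitals follow the convention given for the chemokine promoters.
HEXIM1: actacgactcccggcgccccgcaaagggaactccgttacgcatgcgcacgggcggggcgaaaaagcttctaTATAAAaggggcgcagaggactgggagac
GADD45B: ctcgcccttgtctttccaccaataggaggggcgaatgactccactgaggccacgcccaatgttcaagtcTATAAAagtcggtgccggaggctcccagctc
POLR2A: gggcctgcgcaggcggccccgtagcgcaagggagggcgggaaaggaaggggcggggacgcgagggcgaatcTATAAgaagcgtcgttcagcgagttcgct
CXCL8: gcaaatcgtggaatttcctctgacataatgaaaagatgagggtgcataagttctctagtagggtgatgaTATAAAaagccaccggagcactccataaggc
FOS: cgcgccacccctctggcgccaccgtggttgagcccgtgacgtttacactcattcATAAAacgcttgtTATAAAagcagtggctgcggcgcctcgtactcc
DUSP1: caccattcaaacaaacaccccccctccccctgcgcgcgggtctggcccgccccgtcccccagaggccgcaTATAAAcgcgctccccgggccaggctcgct
SRSF3: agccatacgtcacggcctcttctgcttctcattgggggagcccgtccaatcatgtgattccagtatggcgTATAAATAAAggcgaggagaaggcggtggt

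The windows lie in GRCh38.p14 at chr17:45148375-45148474 (HEXIM1), chr19:2476027-2476126 (GADD45B) and chr17:7484266-7484365 (POLR2A), all on the plus strand. Those of the lowered genes lie at chr4:73740469-73740568 (CXCL8, plus), chr14:75278728-75278827 (FOS, plus), chr5:172771196-172771295 (DUSP1, minus) and chr6:36594262-36594361 (SRSF3, plus). TATAA began between 29 and 33 bases before the start in all 7, so that the 3 raised and the 4 lowered genes shown shared it. These genes were picked for their changes and for the match. TATAA lay within 50 bases before the start in 4.74% of all promoters of the table and ATAAA in 6.1%. Counted by gene, TATAA was held by 58 of the 457 raised genes with a promoter in the table (12.7%), 47 of the 936 lowered genes (5.02%) and 571 of the 12174 genes tested (4.69%), and ATAAA by 10.7%, 5.56% and 5.58%. As above, the table left out a larger part of the raised genes and of the genes tested than of the lowered genes, so these shares are a description.

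Among the most abundant raised protein-coding genes, beside POLR2A, were those of a membrane protein and a laminin. CD55, which protects cells from complement, stood at 159 and 175 FPKM in TAM and at 481 and 425 FPKM in TAM + TPL, a log2 fold change of 1.49 ± 0.17 (adjusted p = 5.72e-05). LAMB1, the beta chain of several laminins, went from 140 and 130 FPKM to 310 and 386 FPKM, a log2 change of 1.31 ± 0.22. Among the most abundant lowered genes were the metallothionein MT1E, from 3118 and 3672 FPKM to 1109 and 1375 FPKM, KRT5, ZFP36, DUSP1 and the tubulins TUBA1C and TUBB, at -1.44 ± 0.21 and -1.75 ± 0.17. MT1E and the tubulins belong to families of near-identical genes, among which reads can be shared. ACTB, a common reference gene, fell from 8504 and 9155 FPKM to 4955 and 4173 FPKM, a log2 change of -1.0 ± 0.18, and GAPDH stood at 3677 and 3635 FPKM against 4364 and 3877 FPKM (adjusted p = 0.570). Of 14 reference genes 6 fell and 1 rose.

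Some of the genes called raised were at 0 counts in both TAM libraries, so that their rise has a lower bound and no measured size. SLC6A12 (chr12:299243-323736 in hg19, minus strand), a transporter of betaine and GABA, had 0 and 0 counts in TAM and 118 and 109 counts in TAM + TPL, at least 39.2-fold higher against 3 counts in each control library. The adrenergic receptor ADRA2A had 0 and 0 counts against 109 and 89, at least 34.3-fold higher, and CKM, the creatine kinase of muscle, 0 and 0 against 80 and 48, at least 22.3-fold higher. The control libraries were thus empty and the treated libraries held between 48 and 118 reads of these 3 genes. The same held for GPR32, a receptor of resolvins, with 46 and 50 counts in TAM + TPL, for CD79B, a chain of the B-cell receptor, with 35 and 33, for the adhesion gene LIMS2, with 31 and 33, and for the noncoding DNAJB5-DT and LINC00628. MIA-RAB4B, NPIPB6 and FCGR1BP, also among the 12 largest rises, are a readthrough transcript, a member of a duplicated family and a pseudogene, so their reads are uncertain.

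ITGAM, the integrin chain CD11b of myeloid cells, rose from 2 and 1 counts to 353 and 333 counts, or from 0.05 and 0.02 FPKM to 9.82 and 8.50 FPKM, a log2 change of 7.77 ± 0.38 (adjusted p = 4.79e-07). It is 1 of 8 immune markers, of which 7 were listed and 4 tested, and 2 rose, ITGAM and CD68. The pan-leukocyte marker PTPRC had 2 and 8.64 counts against 14 and 25.6 (adjusted p = 0.0509), and the monocyte marker CD14 stood at 7.57 and 6.80 FPKM against 5.75 and 7.51 FPKM. Near 0 in every library were HLA-DRA, at no more than 0.28 FPKM, CD3E, at no more than 0.17 FPKM, and TYROBP, at 0. The part of other cell types in the rise of ITGAM was not tested. Without the libraries that shared transcripts, the remaining pair for ITGAM held 2 and 333 counts.

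Noncoding RNAs rose more often than they fell in the fit of all 4 libraries. Of 1531 long noncoding RNAs tested 33.6% rose and 3.66% fell, and of 384 with LINC names 40.6% rose and 1.56% fell. Since these RNAs are scarce, they were compared with protein-coding genes of the same level. From 0.1 to 1 FPKM, the range of 535 of them, the share that rose was about the same, 32.0% against 33.0% of the protein-coding genes, and 0.374% fell against 3.19%. From 1 to 5 FPKM, 33.5% of the long noncoding RNAs rose and 2.67% fell, against 21.4% and 18% of the protein-coding genes, from 5 to 20 FPKM 28.4% rose and 10.2% fell, against 11.2% and 36.1%, and from 20 to 100 FPKM 34.9% rose and 19% fell, against 8.76% and 42.9%. Without both libraries that shared transcripts the higher share of rises was not seen. That fit had 1 library an arm and fewer genes passed in it, so it cannot show that the higher share is absent. In that fit, from 1 to 5 FPKM in the remaining TAM library, 3.0% of the long noncoding RNAs and 4.13% of the protein-coding genes rose. The snoRNA entries went the other way, with 12 of 35 that fell and 2 that rose. Many long noncoding RNAs overlap other genes, and reads counted without strand cannot be told apart there.

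Zinc finger genes of the ZNF series, most of them repressors of transposable elements, differed by location. Of 225 on chromosome 19, where they form large clusters, 39.1% rose and 9.33% fell. Of 230 elsewhere 17.4% rose and 27% fell, and from 1 to 5 FPKM the shares were 38.0% and 5.84% against 21.9% and 22.9%. Without both libraries that shared transcripts 7.11% rose and 4.0% fell on chromosome 19, against 3.04% and 10% elsewhere. Of 77 mitochondrial ribosomal protein genes 39 fell, 12 of them called lowered, and 0 rose, and 10 fell without both libraries. Of 79 cytosolic ribosomal protein genes 68 did not pass the test, 11 rose and 0 fell. The 11 are 13.9%, beside 20.4% of all genes tested that rose, and none of them was called. The list had a median log2 fold change of 0.45, which was 0.69 under upper quartile scaling and 0.33 with GAPDH as the reference. RPLP0, a stalk protein of the large subunit, went from 2020 and 2100 FPKM to 3193 and 3714 FPKM, a log2 change of 0.70 ± 0.21. These rises rested on all 4 libraries: without TAM replicate 1, TAM replicate 2 or TAM + TPL replicate 2 the number that rose was 0, without TAM + TPL replicate 1 it was 1, and without both libraries that shared transcripts it was 0.

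The ribosomal RNA entries, which poly-A selection removes in large part, took 0.638 and 0.597% of the TAM counts and 1.504 and 1.628% of the TAM + TPL counts. The precursor entry RNA45SN5 went from 19.5 and 24.8 FPKM to 195 and 282 FPKM, a log2 change of 3.38 ± 0.27, and RNA18SN5 from 278 and 273 FPKM to 1244 and 1280 FPKM. MIR663A, whose locus shares sequence with ribosomal repeats, rose by 3.73 ± 0.39. Leaving out these entries before scaling gave 618 raised and 1154 lowered genes. Replication-dependent histones, whose mRNAs lack a poly-A tail in dividing cells, were low in these libraries, and of 22 tested of 55 7 rose and 2 fell. These are 31.8% and 9.09%, beside 20.4% and 23.5% of all genes tested. The H2B gene H2BC5, the called member, went from 27.5 and 18.7 counts to 104 and 112 counts, and reads of this family can be shared.

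Of 18 genes that the study examined singly, a list chosen on these samples and so no independent evidence of its direction, 12 rose, 3 fell and 3 did not pass the test. CLU, the secreted chaperone clusterin, went from 4.80 and 3.73 FPKM to 57.1 and 37.8 FPKM, a log2 change of 3.43 ± 0.25. The uncharacterized LOC730101 rose from 3 and 4 counts to 152 and 137. The protease receptor F2R, which the deposited table splits over entries that were summed here, stood at 3.42 and 3.82 FPKM against 5.57 and 6.32 FPKM, a log2 change of 0.66 ± 0.20 (adjusted p = 0.0225), and PHACTR4, a regulator of phosphatase 1, rose by 1.08 ± 0.16. EGR4, at 0.76 ± 0.42, and ARID4A, at 0.50 ± 0.25, did not pass the test. In no list and chosen after their values were seen were GADD45B and NXF1. GADD45B, a stress-induced regulator of MAP kinases, went from 21.5 and 22.1 FPKM to 150 and 158 FPKM, a log2 change of 2.77 ± 0.21 (adjusted p = 3.68e-06), and NXF1, the export receptor of mRNAs, from 69.8 and 67.8 FPKM to 350 and 277 FPKM, a log2 change of 2.34 ± 0.19.

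To learn which changes differed from those in untransformed cells, the TPL effect in TAM cells was compared with that in NT cells, where it rested on 4 other libraries. Of the 622 raised genes 421 (67.7%) were also called raised in NT cells, which is 61.8% of the 681 raised there, and of the 1152 lowered genes 839 (72.8%) were also called lowered, 63.4% of the 1323 there. Calls in opposite directions numbered 0. The fitted change had the same sign in NT cells for 99.0% of the raised and 99.3% of the lowered genes. The share of equal signs over all genes tested was not taken, and both effects came from the same fit with a shared estimate of spread. The number of genes whose effects differed between the cell states moved with the processing. At an adjusted p of at most 0.05 it was 280 with DESeq2, and in edgeR 378 with no filter on low counts and 28 with entries as deposited. The test of the difference itself called 3 genes at the strict thresholds (0.019% of the genes tested) and 134 with an adjusted p no higher than 0.05 (0.851%), and with both libraries that shared transcripts left out edgeR called 0 at either, with 802 genes at an unadjusted p under 0.05. Leaving out any 1 of the 4 libraries of TAM cells also left 0 of the 3, and between 21 and 52 genes at an adjusted p of at most 0.05.

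KRT6B, a keratin of activated epithelium, went from 85.1 and 87.3 FPKM to 52.8 and 52.6 FPKM in TAM cells and from 151 and 170 FPKM to 7.36 and 6.30 FPKM in NT cells, a difference of 3.80 ± 0.23 between the log2 effects (adjusted p = 4.4e-05). Its reads can be shared with KRT6A. PLEKHA6, a junction protein, rose from 2.73 and 1.94 FPKM to 33.9 and 24.8 FPKM in TAM cells, while in NT cells it stood at 35.9 and 39.0 FPKM against 39.1 and 28.1 FPKM, a difference of 3.77 ± 0.32. NEDD4L, a ubiquitin ligase of ion channels, fell by 0.61 ± 0.16 in TAM cells and rose by 2.10 in NT cells. With TPL the levels of PLEKHA6 lay closer between the cell states than with DMSO, and those of KRT6B farther apart. SOCS3, the feedback inhibitor of STAT3, fell from 268 and 222 FPKM to 14.01 and 18.2 FPKM in TAM cells and from 12.8 and 14.4 FPKM to 6.15 and 5.71 FPKM in NT cells, a difference of -2.77 ± 0.27. MYC fell less in TAM cells, by 2.15 against 4.80 on the log2 scale in NT cells, where it began at 532 and 623 FPKM. PLK1 fell in TAM cells and rose in NT cells, at -1.52 and 0.57, a difference of -2.09 ± 0.30, and ID2 rose in both, by 3.68 and 1.42.

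**Figure D4:**
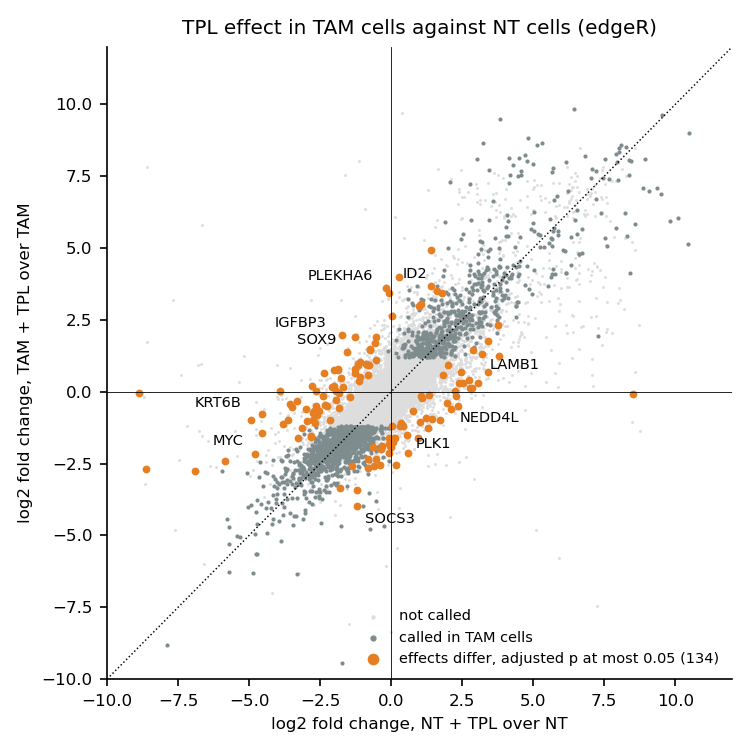
Log2 fold change with TPL in TAM cells (vertical axis) against that in NT cells (horizontal axis) for the genes tested, with genes called in TAM cells in dark grey and the 134 genes whose effects differ at an adjusted p of at most 0.05 in orange. Most called genes lie along the dotted line of equal effect, and KRT6B, PLEKHA6 and NEDD4L lie far from it.

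RNAPII chromatin immunoprecipitation from the same groups gave a readout that the RNA comparison did not use. The deposited lists hold peaks that contain a start site, pooled over replicates and without heights, so that they show presence alone and allow no test. The names of the TAM list carry a cutoff of 0.1 and those of the TAM + TPL list a cutoff of 0.02, and the part of this difference in the values was not tested. In TAM cells the main start site lay within a peak for 55.9% of 14904 genes tested, for 75.4% of the lowered genes (Wilson 95% interval 72.8 to 77.8%) and for 40% of the raised genes (36.1 to 44.1%). These shares followed the level of the genes, and within a range of level the raised genes had the highest share. From 1 to 5 FPKM it was 52.7% of the raised, 47.9% of the lowered and 43.3% of all genes, and from 5 to 20 FPKM 81.8%, 70.8% and 73.4%. From 20 to 100 FPKM it was 87.5%, 84.4% and 85.0%, and from 0.1 to 1 FPKM 19.7% of the raised and 13.5% of all genes. The Wilson intervals in a range overlapped, except those of the raised genes and all genes from 1 to 5 FPKM. Of the genes of all levels with a peak, 81.0% also had one in TAM + TPL, against 67.3% of the lowered genes (64.1 to 70.4%) and 89.8% of the raised genes (85.3 to 93.0%).

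The share of peaks that were also in the TAM + TPL list had the same order in each of 3 ranges of level. From 5 to 20 FPKM in TAM cells, 56.4% of the peaks of the lowered genes, 80.9% of those of all genes and 93.1% of those of the raised genes were also in the TAM + TPL list, and from 1 to 5 FPKM 23.9%, 70.5% and 86.6%. From 20 to 100 FPKM the shares were 80.5%, 88.5% and 100% (28 of 28). Among the genes that rose and fell without both libraries that shared transcripts, 89.2% and 66.9% of the peaks were also in that list, and from 5 to 20 FPKM 89.8% and 53.4%. CXCL1, KRT5, KRT7, TUBB and CDC20 had a listed peak in TAM and none in TAM + TPL, whereas CXCL2, CXCL3, FOS, JUN, DUSP1 and NFKBIA had a peak in both lists. HEXIM1, POLR2A, GADD45B, HBEGF and ID2 had a peak in both. CLU, EGR3 and SOX9 had a listed peak in TAM + TPL alone, and TP63, OVOL2, CXCL8 and ITGAM had none at their main start site in either list. Only the main start site of a gene was looked up, so a peak at another start site was not counted. The intervals cover counting error only.

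**Figure D5:**
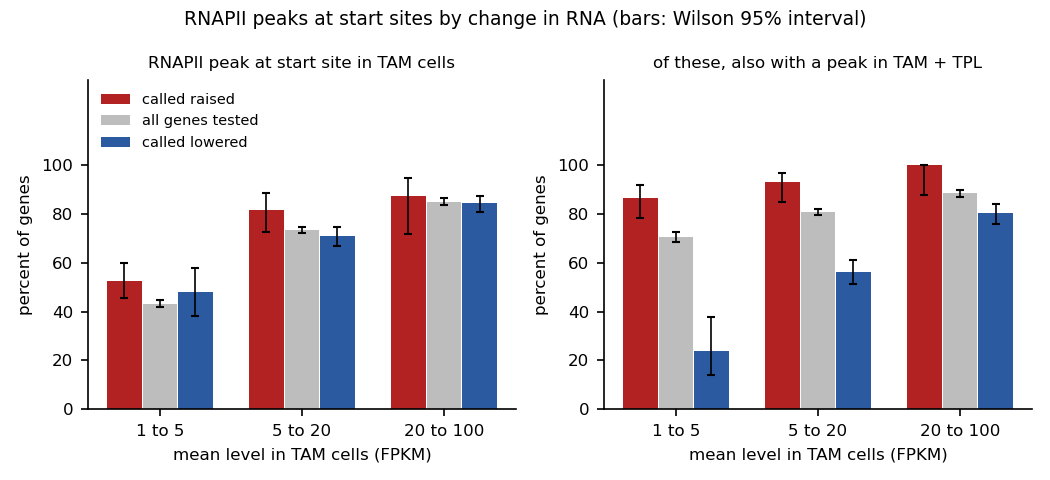
Percent of genes whose main start site lay within an RNAPII peak in TAM cells (left) and percent of these that also had a peak in TAM + TPL (right), by mean level in TAM cells in FPKM, for raised genes (red), all genes tested (grey) and lowered genes (blue), with Wilson 95% intervals. On the right the blue bars lie below the grey and the red bars above, from 23.9% to 86.6% at 1 to 5 FPKM.

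Gene structure was read from the deposited lengths and the annotation. The median transcript length was 3457 bases in the raised and 3062 bases in the lowered genes, against 2875 over all genes tested. The median genomic span was 30.0 kb in the raised and 26.1 kb in the lowered genes, against 30.8 kb, and the median number of exons was 8 in all 3. The level in TAM cells had a median of 1.17 FPKM among the raised, 17.2 FPKM among the lowered and 5.41 FPKM among all genes. With TPL the medians were 7.35, 4.75 and 5.18 FPKM.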

How the data were processed

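Poly-A RNA of MCF10A-ErSrc cells was sequenced by the authors, aligned with Bowtie2 to reference genes and quantified with RSEM, and the deposited expected counts and FPKM values are given per library and entry. The labels name 2 samples per group. Entries were joined to genes by gene ID (21077 of 23604) or RefSeq accession (2407), 120 were not matched, and entries of 1 gene were summed, since 1067 genes had more than 1. Summed counts were rounded to whole numbers and tested with edgeR 4.0.16 (R 4.3.3; TMM scaling, filterByExpr, quasi-likelihood fit over the 4 RNA groups), with Benjamini-Hochberg adjustment over 15754 genes. Scripts were tested on simulated counts. RNAPII peak lists were deposited by the authors as positions in hg19, called with MACS 1.4.2 on pooled replicates, and were used as deposited; no peak was called again. Gene positions are from GENCODE in hg19, and promoter sequences from RefSeq (GRCh38.p14). The alternatives used DESeq2 1.42.0 and limma 3.58.1.

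The library totals of 7461309 to 8349448 counts limit precision for genes of a few counts. The genes and lists were chosen with earlier results of these data known. Genes named by rule were the 12 largest rises and falls and the 6 most abundant raised and lowered genes among calls whose mean reached 1 FPKM, up to 4 called members of each list (or, with none called, members at an adjusted p of at most 0.05), the genes the study examined singly and the 5 genes in each direction whose effect differed most from NT cells. Further list members were named to describe a list after their values were seen. Some genes the rule names are not reported here. Replicate numbers did not pair the libraries: replicate 1 deviations of TAM and TAM + TPL correlated at -0.1063 across genes. The strand setting of the counting is not given in the sources used here. The study's methods describe the 2 libraries of a group as independent biological replicates. The spread used by the test was estimated over all 4 RNA groups, so p-values do not rest on the TAM libraries alone. The common dispersion, edgeR's measure of this spread, was 0.0320 in that fit and 0.0158 in a fit over the TAM groups alone.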

Additional observations from a re-analysis of the deposited data

Results flagged for a closer look

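The genes below are among those named in the text or by rule whose TPL effect differed between TAM and NT cells at an adjusted p of at most 0.05 in edgeR's test of the difference itself. Each value is the log2 effect in TAM cells minus that in NT cells, with 2 libraries in each of the 4 groups.

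Effects of opposite direction, both past an adjusted p of 0.05, were seen for SOX9 (difference 2.95), IGFBP3 (3.72), SLC6A9 (3.03) and METRNL (2.43), which rose in TAM cells and fell in NT cells. IGFBP3, an IGF-binding protein, went from 0.32 and 0.96 FPKM to 2.89 and 2.32 FPKM in TAM cells and from 5.05 and 5.44 FPKM to 1.58 and 1.55 FPKM in NT cells, and SOX9 was as low. With 1 library of TAM cells left out, the log2 effect in TAM cells lay between 0.77 and 2.41 for SOX9. For IGFBP3 it lay between 1.37 and 2.96. The reverse, a fall in TAM cells and a rise in NT cells, was seen for PLK1 (-2.09), NEDD4L (-2.71) and FAM111B (-2.55), a replication-linked protease that went from 8.04 and 7.23 FPKM to 2.52 and 2.58 FPKM in TAM cells and from 1.48 and 2.12 FPKM to 3.61 and 3.23 FPKM in NT cells. In NT cells the change of PLK1 had an adjusted p of 0.049.

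Larger falls in TAM cells were fitted for SOCS3 (-2.77), ID1 (-1.80) and KRT7 (-1.30), and smaller falls for MYC (2.65) and KRT6B (3.80). Larger rises in TAM cells were fitted for ID2 (2.26) and CLU (1.64), and smaller rises for LAMB1 (-1.87), PMAIP1 (-1.45) and GFPT2 (-2.74). PLEKHA6 (3.77) rose in TAM cells and did not pass the test in NT cells. ABTB3 (-2.82) and PFKFB3 (-2.08) did not pass the test in TAM cells and rose in NT cells. PFKFB3, a regulator of glycolysis, stood at 33.4 and 31.3 FPKM against 38.3 and 42.5 FPKM in TAM cells and went from 7.46 and 7.56 FPKM to 40.2 and 35.4 FPKM in NT cells. With both libraries that shared transcripts left out, 0 genes passed an adjusted p of 0.05 in this test by edgeR and 802 an unadjusted p of 0.05.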

How the results depend on the processing

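Against 622 raised, 1152 lowered and 3 genes whose effect differed between TAM and NT cells, DESeq2 called 87 of the last kind, library size alone 1, upper quartile scaling 5, GAPDH as the reference 8, a filter of at least 10 counts in every library 5, and limma on log2(FPKM + 1) or log2(FPKM + 0.1) 1 each. With no filter on low counts 1061 genes were raised and 84 differed, and a fit over the TAM groups alone raised 1000 and cannot give the difference from NT cells. Entries as deposited, not summed by gene, gave 143 raised, 345 lowered and 0 that differed, with 28 at an adjusted p up to 0.05 and 1799 at an unadjusted p under 0.05. An adjusted p of 0.05 at the same fold change gave 1878, 1805 and 132. The cause of these moves was not tested, except that the lower number of tests or a looser threshold follows from the setting itself.

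Leaving out 1 library gave 136 to 225 raised and 241 to 436 lowered genes and 0 that differed. Without TAM replicate 2 and TAM + TPL replicate 1 together, chosen after seeing the data, edgeR called 0 raised, 0 lowered and 0 that differed. No call that was tested changed sign in the settings run on genes. Entries as deposited were not compared in this way, and the filter of at least 10 counts in every library tested 1448 of the calls. With the replicate number as a block, 404 genes were raised, 878 lowered and 1 differed. Of the 132 named genes called, 116 were called under the block, while FCGR1BP, LINC00628, CD79B, DNAAF4-CCPG1, LAMB1, BAK1, GTF2H4, EAF2, H2BC5, CCND1, HSPA6, MVK, HMGCS1, SNAI1, NCOA6 and FAM111B were not. All 159 named genes kept their side of an adjusted p of 0.05. A block with crossed numbers, chosen after seeing the data, gave 626, 1193 and 3. Of 2190 values of named genes under settings other than leaving out a library 2161 kept their side of an adjusted p of 0.05, as did 591 of 636 without 1 library. Depth limits genes of a few counts, where folds are bounds.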
